A study of Mus musculus with 59 samples.

Results

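In the hippocampus, mice heterozygous for both Mrpl40 and Slc25a1 were set against mice heterozygous for Slc25a1 only, 7 libraries against 7 out of 59 in the series. The members were chosen by label: every hippocampus library of genotype Mrpl40 -/+ with Slc25a1 -/+ (double het below) and every one of genotype Mrpl40 +/+ with Slc25a1 -/+ (Slc25a1 het below). All 14 mice thus carried 1 mutant Slc25a1 allele by label, and the comparison asks what the mutant Mrpl40 allele adds, without use of wild-type libraries. All mice were male, and each library came from another animal. The sources used here give neither the age of the mice nor how the alleles were made. Poly(A) RNA was sequenced from strand-marking libraries. The 15 other hippocampus libraries, 7 of genotype Mrpl40 -/+ with Slc25a1 +/+ (Mrpl40 het) and 8 wild type, entered the same fit for the shared spread.

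Mitochondrial ribosomes translate the few respiratory chain subunits that mitochondrial DNA encodes, and Mrpl40 is one of the proteins of their large subunit. Slc25a1 is the citrate carrier of the inner mitochondrial membrane, and exported citrate is the source of cytosolic acetyl-CoA for fatty acid and cholesterol synthesis. Both human genes lie in the segment lost in 22q11.2 deletion syndrome, which brings heart defects and a raised risk of psychosis. Hippocampal neurons (dentate granule cells and the pyramidal cells of the CA fields) draw much of the ATP for synaptic transmission from mitochondria.

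Among the genes of smallest p were nuclear copies of mitochondrial genes, stretches of mitochondrial DNA that were inserted into chromosomes. All 37 rows of genes on the mitochondrial genome itself hold 0 counts in every library. A read from a mitochondrial transcript and one from an identical nuclear copy have the same letters, so the counts of the copies are uncertain and their origin cannot be told apart. A search of transcripts found 11 tested copies with at least 95% identity. Of these, 7 lie side by side on the minus strand of chromosome 1, chr1:24611535-24616197 in GRCm38, as unprocessed pseudogenes: Gm28439 (mt-Nd4), Gm10222 (mt-Nd4l), Gm28438 (mt-Nd3), Gm28437 (mt-Co3), Gm10925 (mt-Atp6), Gm28661 (mt-Co2) and Gm29216 (mt-Co1). The build named in the submitters' processing notes is GRCm39, so these positions are not those of the counted build. Gm10222 is shown whole because its 294 bases are identical to mt-Nd4l, which encodes a subunit of complex I.
Gm10222: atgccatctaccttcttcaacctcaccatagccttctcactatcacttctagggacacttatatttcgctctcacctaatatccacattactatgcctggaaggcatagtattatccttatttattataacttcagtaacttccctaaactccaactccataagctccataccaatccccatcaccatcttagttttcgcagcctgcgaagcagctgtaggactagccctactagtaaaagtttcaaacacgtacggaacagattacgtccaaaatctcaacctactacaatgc
On chromosome 2, Gm13340 has diverged to 97.6% identity with mt-Co1, which encodes the catalytic subunit of cytochrome oxidase. Bases 1174 to 1293 of both are shown because they differ at 6 places, in capitals. Reads were not examined, so whether reads of mt-Co1 were counted for Gm13340 was not tested.
Gm13340: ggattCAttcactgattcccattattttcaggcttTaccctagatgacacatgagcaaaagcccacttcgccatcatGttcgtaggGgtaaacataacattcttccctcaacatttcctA
mt-Co1: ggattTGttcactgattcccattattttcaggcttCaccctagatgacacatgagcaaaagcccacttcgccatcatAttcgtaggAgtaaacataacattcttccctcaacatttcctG

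The 14 libraries held 22181973 to 29895407 counts. Levels are CPM, the usual depth-scaled counts, after TMM scaling, and differences are log2 fold changes, double het minus Slc25a1 het, from edgeR's quasi-likelihood test with Benjamini-Hochberg adjustment and a threshold of 0.05. The labels were checked on the targeted genes. Slc25a1 lay at 11.9, 13.1, 24.5, 21.5, 11.8, 10.8 and 11.9 CPM in Slc25a1 het replicates 1 to 7 and at 12.6, 12.0, 13.0, 12.5, 27.7, 21.4 and 11.3 CPM in double het replicates 1 to 7. The libraries labelled Slc25a1 het 3 and 4 and double het 5 and 6 went against their labels, since Mrpl40 het, with intact Slc25a1 by label, held 23.3 to 25.8 CPM. Cortex libraries of the same 4 animals held 21.5, 24.0, 21.6 and 20.8 CPM, and those of the other 10 held 10.6 to 13.0 CPM. As labelled, the groups differed by 0.693 CPM in Slc25a1 (two-sided exact permutation test over 3432 splits, p = 0.777). Mrpl40 held 14.5 to 16.4 CPM (median 15.2) in Slc25a1 het and 14.5 to 17.5 CPM (median 16.4) in double het, and also overlapped (exact permutation p = 0.212). It lay at 14.1 to 17.3 CPM in Mrpl40 het and 13.4 to 17.5 CPM in wild type, so its RNA gives no check of the Mrpl40 labels.

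In 2 libraries markers of the cerebellum or the choroid plexus stood high. The library labelled Slc25a1 het 3 held the cerebellar granule cell gene Cbln3 at 189.7 CPM and the Purkinje cell gene Pcp2 at 10.7 CPM, against at most 3.48 and 1.23 CPM in the other 13. The library labelled double het 6 held Ttr, transthyretin of the choroid plexus, at 57.7 CPM against at most 11.0 CPM. Results were therefore also computed without the libraries whose Slc25a1 level goes against the label (6 in the hippocampus, 4 of them compared here), and without Slc25a1 het 3 and double het 6. The rest of those 6 were labelled wild type, where Slc25a1 went down to 11.35 CPM (median 25 CPM), so the Mrpl40 het comparison also holds doubtful labels. Both alternatives were chosen after the data were seen. Tcf7l2, of the thalamus and habenula list, held 5.65 to 8.80 CPM in Slc25a1 het and 5.02 to 19.2 CPM in double het. For it 3 of 7 double het libraries lay above all Slc25a1 het libraries (log2 fold change 0.56, SE 0.24, unadjusted p = 0.0298 by edgeR). In that list as a whole 5 of 12 genes lay above 0.

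No gene passed the threshold between double het and Slc25a1 het. edgeR called 0 of 20162 genes (0%), with a lowest adjusted p of 0.201, while 1822 genes (9.04%) had an unadjusted p under 0.05, 893 higher (4.43%) and 929 lower (4.61%). DESeq2's Wald test called 14 of 17311 genes, 9 higher and 5 lower in double het, among them 4 of the copies, Emc10, Cck, Rnf126, Rab11b-ps2, Col9a3 and Aif1l. Without Slc25a1 het 1 edgeR called 10 genes, all higher, including Cck, Emc10, Jund, Scand1, Pcsk1n, Lrrc4b and 2 copies. It called 1 without Slc25a1 het 7 (Gm28438) and 2 without double het 2 (Gm28439 and Igf2r). Without the libraries that go against the label it called 0, with 1544 genes at an unadjusted p under 0.05 and a lowest adjusted p of 0.632. The median log2 fold change over all genes was -0.0090, and 46.6% lay above 0. Among genes of a mean log2 CPM of at least 3 it was 49.5%. These shares, and the 4.43% higher and 4.61% lower at an unadjusted p under 0.05, are the background for the counts of gene groups. The median standard error (SE) was 0.092. For 91.6% of genes the 95% interval reached less than 1.5-fold to either side of the gene's own estimate.

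The copies of mitochondrial genes lay above the Slc25a1 het level in 11 of 11 cases, with a median log2 fold change of 0.32, and 10 had an unadjusted p under 0.05. The list was chosen after its values were seen. Gm28439, the copy of mt-Nd4, had the smallest p of all genes and held 865 to 1138 CPM (median 1008) in Slc25a1 het and 1099 to 1459 CPM (median 1287) in double het. In double het 6 of 7 libraries lay above every Slc25a1 het library. The log2 fold change was 0.34 (SE 0.066, unadjusted p = 1.12e-05, adjusted p = 0.201 by edgeR). Gm10222, printed above, held 192 to 260.1 CPM (median 221) in Slc25a1 het and 243 to 320.2 CPM (median 278) in double het, and again 6 of 7 lay above all. Its log2 fold change was 0.32 (SE 0.066).

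The diverged copies lay on the same side, and whether reads of mitochondrial transcripts were counted for them was not tested. Gm13340, whose letters differ from mt-Co1, held 191 to 266 CPM (median 231) against 244 to 337 CPM (median 296), a log2 fold change of 0.32 (SE 0.074). Gm4076 on chromosome 13, a copy of mt-Nd5 and the scarcest, held 1.85 to 2.41 CPM (median 2.15) against 2.12 to 3.60 CPM (median 2.92), a log2 fold change of 0.42 (SE 0.11). Among all 11 copies the smallest difference was that of Gm29216 on chromosome 1, which is not diverged, at 99.8% identity with mt-Co1. It held 743 to 1091 CPM (median 935) against 832 to 1227 CPM (median 1026), with 0.16 (SE 0.087, unadjusted p = 0.0723 by edgeR). Mean log2 CPM of the nuclear copies of mitochondrial genes was lowest in Slc25a1 het 5 and 6 and highest in double het 5 and 1, and of these double het 5 goes against its label. Without the libraries that go against the label 11 of 11 lay above 0 with a median of 0.25, and with each of the 14 libraries left out in turn the median ran from 0.28 to 0.35.

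Mrpl40 het against wild type, 15 libraries that share none with the comparison above, showed 11 of 11 copies above 0, with a median of 0.35, where 47.1% of all genes did. There Gm10222 was the 1 gene of 20162 that passed (0.00496%), from 197 to 242 CPM in wild type to 272 to 334 CPM in Mrpl40 het with no overlap (log2 fold change 0.42, SE 0.064, adjusted p = 0.00421 by edgeR). Leaving out the libraries that go against the label, 0 genes passed there by edgeR, with 1469 at an unadjusted p under 0.05 and a lowest adjusted p of 0.0804. In cortex of the same animals as the double het and Slc25a1 het hippocampi, 11 of 11 copies lay above 0, with a median of 0.20. The cortical contrast as a whole had 12 of 20394 genes called (0.0588%) and 2023 (9.92%) at an unadjusted p under 0.05. The share of all cortical genes above 0 was not counted, so the cortical counts of gene groups stand without that background.

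**Figure D1:**
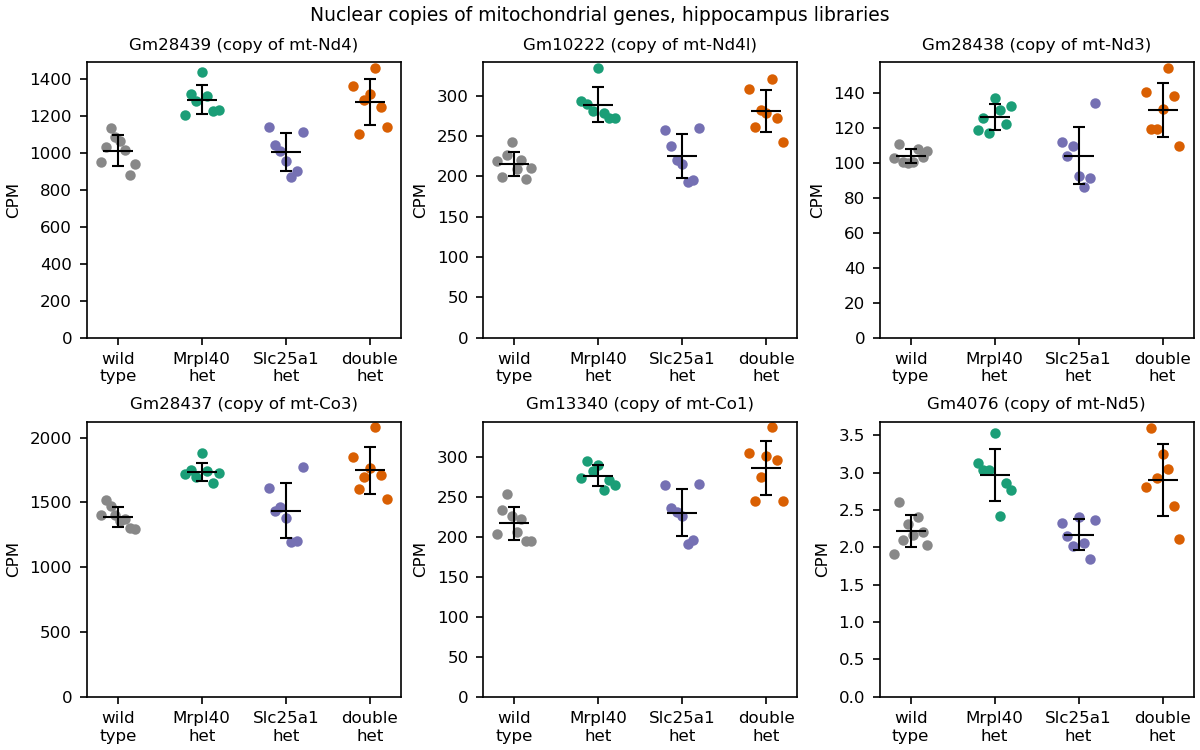
CPM of 6 nuclear copies of mitochondrial genes (y axis) in each hippocampus library of the 4 genotypes (x axis), with the mean and SD of each group (n = 8 wild type, 7 in each other group). For Gm10222 the Mrpl40 het libraries sit between 272 and 334 CPM, above the wild-type libraries at 197 to 242 CPM, while double het and Slc25a1 het overlap.

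The 15 genes of smallest p, leaving out predicted genes, had adjusted p-values of 0.201 to 0.252 by edgeR, and none passed. Emc10, a subunit of the complex that inserts proteins into the endoplasmic reticulum membrane, held 115 to 142 CPM (median 119.7) in Slc25a1 het and 133 to 157 CPM (median 141) in double het. The groups overlapped, with 3 of 7 double het libraries above all Slc25a1 het libraries, and the log2 fold change was 0.22 (SE 0.047). Cck, the neuropeptide cholecystokinin, held 83.5 to 142 CPM (median 93.5) against 113 to 159 CPM (median 126), a log2 fold change of 0.41 (SE 0.096). Its highest Slc25a1 het value was that of replicate 1, without which the log2 fold change was 0.52 (adjusted p = 0.00405 by edgeR).

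Rnf126, a ubiquitin ligase, lay higher in double het with no overlap, at 38.8 to 47.9 CPM (median 46.0) against 48.6 to 54.4 CPM (median 50.9) (log2 fold change 0.18, SE 0.041). So did Nop10, a protein of the particles that modify ribosomal RNA, at 17.0 to 18.8 CPM (median 18.0) against 18.9 to 22.3 CPM (median 21.6) (log2 fold change 0.21, SE 0.053). Mcrip1 (0.18, SE 0.043) and Rab11b-ps2 (0.19, SE 0.041), a pseudogene that can share reads with its parent gene, lay higher too.

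The other 9 lay lower. Dnmt3a, the de novo DNA methyltransferase, held 102 to 124 CPM (median 115) against 84.3 to 112 CPM (median 95.6), a log2 fold change of -0.23 (SE 0.056). Col9a3, a collagen IX chain, held 14.2 to 17.6 CPM (median 15.7) against 11.0 to 14.7 CPM (median 13.3), with 6 of 7 double het libraries below all Slc25a1 het libraries and a log2 fold change of -0.29 (SE 0.065). The groups did not overlap for Lrba, at 34.1 to 37.4 CPM (median 34.5) against 30.0 to 34.0 CPM (median 31.7), a log2 fold change of -0.14 (SE 0.033), or for Nckap5, at 8.38 to 10.2 CPM (median 8.94) against 6.35 to 8.07 CPM (median 7.23), with -0.32 (SE 0.080). The endosomal adaptor Appl2 had -0.26 (SE 0.064), the actin-binding Aif1l -0.34 (SE 0.075), Soga1 -0.31 (SE 0.074), Gon4l -0.18 (SE 0.044) and Kcne1l -0.47 (SE 0.11).

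Over all genes the groups did not overlap for 31 of 20162 (0.154%), 13 higher (0.0645%) and 18 lower (0.0893%) in double het. Beyond those above, the following were named after their values were seen. Hspa8, the constitutive HSP70, held 940.2 to 1141 CPM (median 1075) against 1148 to 1354 CPM (median 1212), and its HSP40 partner Dnaja1 157 to 172 CPM (median 162) against 173 to 194 CPM (median 178). The nuclear importer Ipo7 held 149.6 to 160.5 CPM (median 158) against 163 to 173 CPM (median 165), a log2 fold change of 0.085 (SE 0.034). On the lower side, Upf3b, a factor of nonsense-mediated decay, held 43.4 to 46.8 CPM (median 45.4) against 39.0 to 43.2 CPM (median 41.5), and the polarity scaffold Scrib 56.3 to 63.5 CPM (median 57.8) against 50.5 to 56.1 CPM (median 53.6).

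Genes of the machinery that Mrpl40 belongs to held no gene that passed. At an unadjusted p under 0.05, 4.43% of all genes were higher and 4.61% lower. For the mitochondrial ribosome large subunit, 33 of 49 genes lay above 0 with a median log2 fold change of 0.025, and 3 were higher and 0 lower at an unadjusted p under 0.05. For the mitochondrial ribosome small subunit it was 22 of 29, a median of 0.028, and 5 higher and 0 lower. For mitochondrial translation, transcription and RNA handling it was 12 of 29, a median of -0.0076, and 3 higher and 1 lower. Mrpl35, a large-subunit protein, held 19.4 to 22.8 CPM (median 20.0) against 21.6 to 24.5 CPM (median 22.6), a log2 fold change of 0.16 (SE 0.048, adjusted p = 0.381 by edgeR). Mrps24, of the small subunit, held 9.01 to 12.9 CPM (median 9.62) against 9.80 to 13.3 CPM (median 11.8) (0.20, SE 0.080). Polg2, the accessory subunit of the mitochondrial DNA polymerase, held 3.72 to 4.99 CPM (median 4.42) against 3.01 to 4.08 CPM (median 3.56) (-0.31, SE 0.11). All of these overlapped.

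Of the nuclear genes of complex I, the first enzyme of the respiratory chain, 30 of 36 lay above 0 (median 0.047, 4 higher and 0 lower at an unadjusted p under 0.05), and of complexes II to V 24 of 39 (median 0.026, 4 higher and 0 lower). At that p 4.43% of all genes were higher and 4.61% lower. Ndufa10, a complex I subunit, held 111 to 119.7 CPM (median 114) against 112 to 138 CPM (median 122), a log2 fold change of 0.12 (SE 0.049). Cox5a, of cytochrome oxidase, held 36.6 to 59.2 CPM (median 45.0) against 47.4 to 62.4 CPM (median 58.4), a log2 fold change of 0.32 (SE 0.092, adjusted p = 0.363 by edgeR). Mrpl40 het against wild type had 14 of 36 complex I genes above 0 (median -0.020), and cortex had 21 of 36 (median 0.018).

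Around the citrate carrier, the list of the citrate cycle, citrate use and fatty acid synthesis had 21 of 27 genes above 0 (median 0.045), with 2 higher and 2 lower at an unadjusted p under 0.05. Elovl6, a fatty acid elongase, held 49.4 to 53.9 CPM (median 51.8) against 50.1 to 63.3 CPM (median 56.9), a log2 fold change of 0.15 (SE 0.058). SLC25 carriers other than Slc25a1 had 21 of 34 (median 0.030), and cholesterol synthesis and uptake 17 of 24 (median 0.036), led by the sterol regulator Srebf2 at 182 to 206 CPM (median 194) against 188 to 229 CPM (median 209) (0.13, SE 0.052). The genes next to Mrpl40 and Slc25a1 in the mouse segment that matches 22q11.2 (22q11.2-matching region neighbours) had 17 of 29 above 0, a median of 0.0077, and 0 higher and 0 lower at that p.

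**Figure D2:**
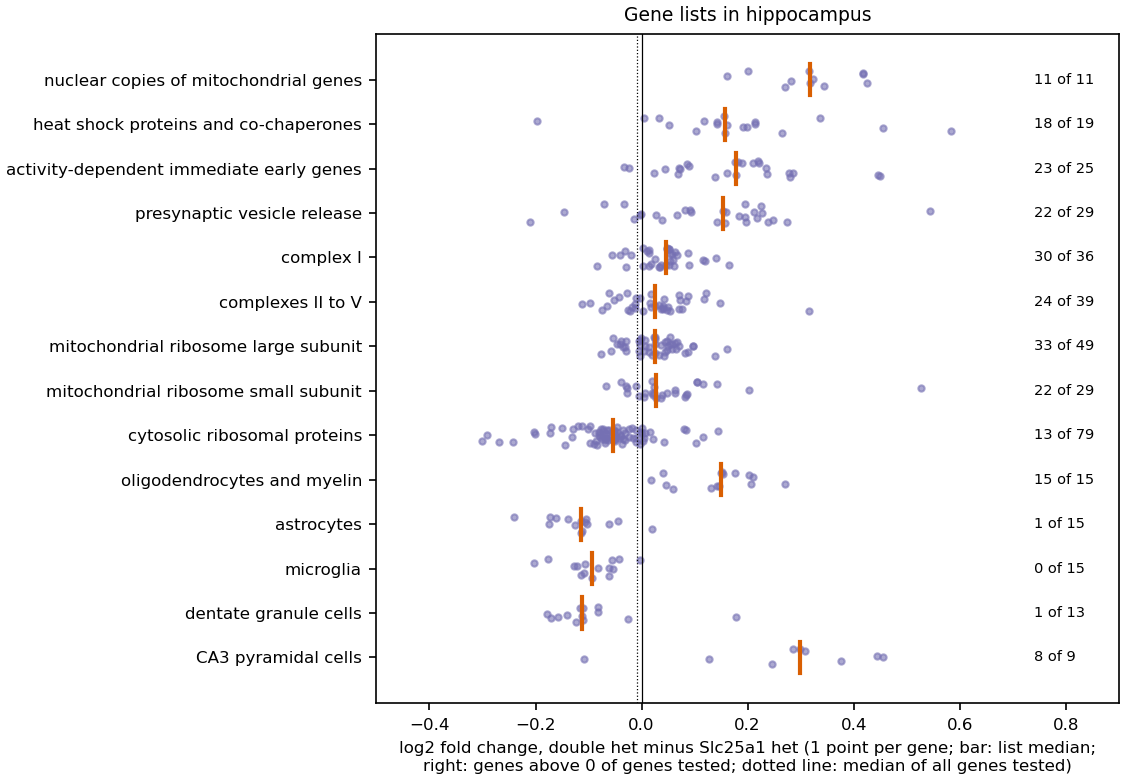
Log2 fold change, double het minus Slc25a1 het (x axis), of each tested gene of 14 lists, 1 point per gene, with a bar at each list's median and the count of genes above 0. The copies of mitochondrial genes (11 of 11), the heat shock list (18 of 19) and the immediate early genes (23 of 25) lie mostly above 0, and the cytosolic ribosomal proteins (13 of 79) mostly below.

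Heat shock proteins fold new and damaged proteins, and heat shock factors switch them on through repeats of GAA and its complement. Of the heat shock proteins and co-chaperones, 18 of 19 genes lay above 0 with a median log2 fold change of 0.16. At an unadjusted p under 0.05, 11 were higher and 0 lower (4.43% and 4.61% of all genes). Hsph1, an exchange factor of HSP70, held 275 to 335 CPM (median 319.8) in Slc25a1 het and 330.3 to 404 CPM (median 372) in double het. In double het 6 of 7 libraries lay above all Slc25a1 het libraries, and the log2 fold change was 0.26 (SE 0.072, adjusted p = 0.308 by edgeR). Hspa1a, the inducible HSP70, held 2.83 to 6.35 CPM (median 4.65) against 5.70 to 8.34 CPM (median 6.32), and Hspa1b, a near-identical neighbour with which it can share reads, 8.02 to 18.9 CPM (median 15.7) against 15.2 to 27.8 CPM (median 23.3). Hsp90aa1, the inducible HSP90, held 615 to 714 CPM (median 696) against 696 to 869 CPM (median 782), a log2 fold change of 0.21 (SE 0.071). Bag3, a co-chaperone of selective autophagy, was the 1 member below 0, at -0.20 (SE 0.11).

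In Mrpl40 het against wild type 12 of 19 of the heat shock proteins and co-chaperones lay above 0 (median 0.0081), and in cortex 17 of 19 (median 0.12). With the libraries that go against the label left out, it was 17 of 19 (median 0.13), and with single libraries left out 17 or 18 of 19, with medians from 0.14 to 0.18. RefSeq promoters (GRCm38.p6) were matched for 15 of these genes. GAANNTTC or TTCNNGAA, each its own reverse complement, occurred within 250 bases before a start in 6 of 15 (40.0%), against 12.4% of 12612 tested genes and 14.5% of all 27025 genes in the table. The same with a further NNGAA after GAANNTTC, searched on both strands, occurred in 0 of 15 and in 0.468% of tested genes. Hsph1 (chr5:149636337-149636409, minus strand), Dnaja1 (chr4:40722304-40722391, plus strand) and Fkbp4 (chr6:128438760-128438847, minus strand) are shown, with the match in capitals, because all hold it while their log2 fold changes were 0.26, 0.16 and 0.052 (SE 0.072, 0.044 and 0.055).
Hsph1: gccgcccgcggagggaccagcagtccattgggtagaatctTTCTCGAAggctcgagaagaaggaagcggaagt
Dnaja1: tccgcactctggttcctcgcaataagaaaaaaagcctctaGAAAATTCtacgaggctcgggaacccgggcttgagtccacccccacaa
Fkbp4: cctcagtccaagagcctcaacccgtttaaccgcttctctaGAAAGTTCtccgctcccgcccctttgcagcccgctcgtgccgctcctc

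Immediate early genes are transcribed within minutes of neuronal firing. Of the activity-dependent immediate early genes, 23 of 25 lay above 0 with a median of 0.18. At an unadjusted p under 0.05, 6 were higher and 0 lower (4.43% and 4.61% of all genes). Jund, a subunit of the factor AP-1, held 16.6 to 27.3 CPM (median 21.6) in Slc25a1 het and 24.3 to 29.2 CPM (median 26.4) in double het, a log2 fold change of 0.28 (SE 0.070, adjusted p = 0.252 by edgeR). Egr4, a zinc finger factor, held 5.77 to 11.7 CPM (median 6.71) against 7.47 to 12.5 CPM (median 9.65), and the nuclear receptor Nr4a3 50.1 to 74.9 CPM (median 64.1) against 49.9 to 119.5 CPM (median 81.3). The activity markers Fos (3.65 to 7.29 CPM against 2.92 to 13.7 CPM) and Arc (51.7 to 88.7 CPM against 49.1 to 135 CPM) overlapped, and double het held both the lowest and the highest value of each. The mean of the list was highest in double het 1 and 5. Without the libraries that go against the label 22 of 25 lay above 0 (median 0.074), and with single libraries left out 19 to 25 of 25 did, with medians from 0.050 to 0.25. In cortex of the same animals 3 of 25 lay above 0, with a median of -0.24. Mrpl40 het against wild type had 19 of 25 above 0, with a median of 0.12.

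Of the genes of presynaptic vesicle release, 22 of 29 lay above 0 with a median of 0.15. At an unadjusted p under 0.05, 9 were higher and 0 lower (4.43% and 4.61% of all genes). Syt1, the calcium sensor of fast release, held 1088 to 1347 CPM (median 1206) against 1147 to 1688 CPM (median 1410.0), a log2 fold change of 0.23 (SE 0.080, adjusted p = 0.456 by edgeR). The SNARE protein Snap25 held 1568 to 2104 CPM (median 1907) against 1839 to 2627 CPM (median 2154), and the vesicle phosphoprotein Syn1 388 to 508 CPM (median 459) against 420.1 to 678 CPM (median 522). The groups overlapped for all of these. Without the libraries that go against the label 25 of 29 lay above 0 (median 0.20), and in cortex 20 of 29 (median 0.018). Mrpl40 het against wild type had 19 of 29 above 0 (median 0.050). The mean of the list was lowest in Slc25a1 het 7, and in double het 6 and 7 it lay below its mean over the 14 libraries. Of neuropeptides, granins and processing enzymes, 16 of 25 lay above 0 (median 0.050, 5 higher and 1 lower), with the granin Vgf at 70.7 to 128 CPM (median 85.1) against 91.5 to 141 CPM (median 121). Of voltage-gated calcium, sodium and HCN channels, 21 of 30 did (median 0.064), with the sodium channel subunit Scn2b at 259.5 to 304 CPM (median 286) against 287 to 343 CPM (median 318). Of a list of potassium channels, 14 of 29 did (median -0.00059), with the small-conductance channel Kcnn1 at 13.8 to 15.7 CPM (median 14.6) against 15.0 to 20.4 CPM (median 17.3).

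Of the cytosolic ribosomal proteins, 13 of 79 lay above 0, with a median of -0.054. At an unadjusted p under 0.05, 10 were lower and 1 higher (4.61% and 4.43% of all genes). Rpl23a, a large-subunit protein, held 25.7 to 33.4 CPM (median 30.0) against 22.1 to 31.6 CPM (median 25.7), a log2 fold change of -0.20 (SE 0.066, adjusted p = 0.422 by edgeR), and Rps24, of the small subunit, 154 to 185 CPM (median 170.2) against 137 to 175 CPM (median 149). These genes have many processed copies in the genome that can share their reads. Leaving out the libraries that go against the label, 10 of 79 lay above 0 (median -0.080), in Mrpl40 het against wild type 16 of 79 (median -0.030) and in cortex 9 of 79 (median -0.054).

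No marker of the other cell types passed the test, and the part of these markers in the results above was not tested. In bulk tissue, fewer cells of a type and less RNA per cell cannot be told apart. Of the markers of astrocytes, 1 of 15 lay above 0 (median -0.11, 5 lower at an unadjusted p under 0.05), with summed levels of 6779 to 9183 CPM in Slc25a1 het and 6664 to 8245 CPM in double het. Slc1a3, the glutamate transporter GLAST of astrocytes, held 705 to 1053 CPM (median 848) against 654 to 801 CPM (median 702), a log2 fold change of -0.24 (SE 0.071, adjusted p = 0.363 by edgeR). Of the markers of microglia, 0 of 15 lay above 0 (median -0.093), with summed levels of 474 to 709 CPM and 498 to 611 CPM. Of those of oligodendrocytes and myelin, 15 of 15 did (median 0.15, 0 at an unadjusted p under 0.05), with summed levels of 2600.0 to 3941 CPM and 2328 to 4713 CPM, and the mean was highest in double het 1 and 5, as for the immediate early genes. With the libraries that go against the label left out, 11 of 15 did (median 0.035). Mrpl40 het against wild type had 1 of 15 oligodendrocyte and myelin markers above 0 (median -0.059). For astrocytes it was 0 of 15 there (median -0.095), and for microglia 4 of 15 (median -0.039). Cortex had 9 of 15 (median 0.022) for oligodendrocytes and myelin. For astrocytes it had 2 of 15 (median -0.070) and for microglia 1 of 15 (median -0.092).

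Among the hippocampal fields, markers of CA3 pyramidal cells lay above 0 for 8 of 9 genes (median 0.30), led by the RNA-binding Elavl2 at 38.2 to 65.4 CPM (median 55.9) against 46.4 to 101 CPM (median 73.3), and those of CA1 pyramidal cells for 7 of 10 (median 0.042). Markers of dentate granule cells lay above 0 for 1 of 13 (median -0.11, 0 at an unadjusted p under 0.05), with Prox1, their identity factor, at 192 to 302 CPM (median 269) against 178 to 315 CPM (median 203), and those of dentate neurogenesis and proliferation for 1 of 14 (median -0.16). Both Elavl2 and Prox1 overlapped between the groups. Of the CA3 markers, 1 was higher and 0 lower at an unadjusted p under 0.05. The mean of the CA3 list was highest in double het 3 and 4 and lowest in Slc25a1 het 7. In double het 1 and 6 it lay below its mean over the 14 libraries. Mrpl40 het against wild type had 7 of 9 CA3 markers above 0 (median 0.19), and cortex 2 of 8 (median -0.024). Summed levels of the dentate granule cell markers were 1268 to 1897 CPM in Slc25a1 het and 1170 to 2040 CPM in double het. Their mean was highest in double het 6 and 7 and lowest in double het 5 and 4. Of the markers of the cerebellum, 0 of 11 lay above 0 (median -1.89), with summed levels of 288 to 1133 CPM against 262 to 390.1 CPM. Without Slc25a1 het 3 and double het 6 it was 8 of 11 (median 0.15). Of those of the choroid plexus, 9 of 10 lay above 0 (median 0.31), and 7 of 10 (median 0.11) without those libraries.

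**Figure D3:**
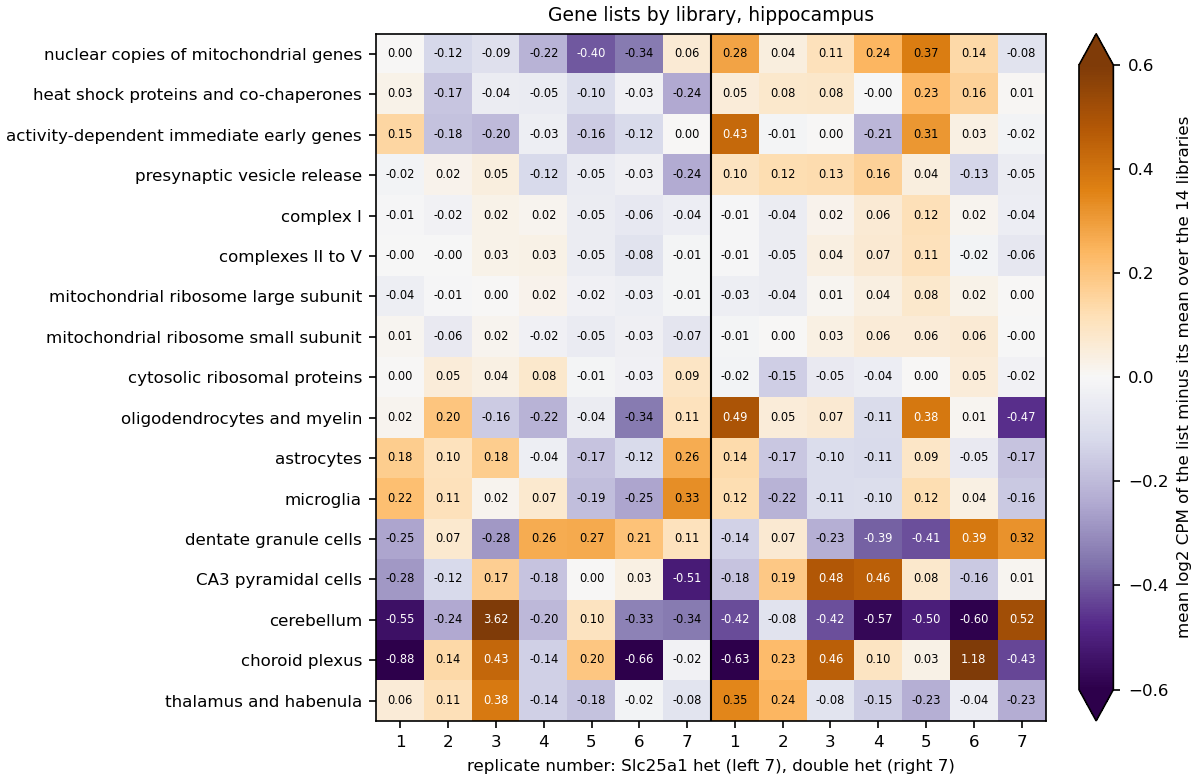
Mean log2 CPM of 17 gene lists in each of the 14 libraries, less the list's mean over them (columns: replicates 1 to 7 of Slc25a1 het, then of double het). The cerebellum value of Slc25a1 het 3 is 3.62 and the choroid plexus value of double het 6 is 1.18.

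Differences along with Mrpl40 on the other Slc25a1 background were read from Mrpl40 het against wild type, which shares no library with the comparison. Of all 20162 genes 61.3% had the same direction in both. Of the 1822 at an unadjusted p under 0.05 in double het against Slc25a1 het it was 77.3%, and of the 269 under 0.05 in both 92.9%. Those 269 were 14.8% of the 1822, and 16.3% of the 1651 (8.19% of genes tested, 4.05% higher and 4.14% lower) on the other background. After the copies, the genes whose larger p of the pair was smallest were named after their values were seen. The kinase gene Hipk2 held 17.1 to 30.3 CPM (median 22.7) against 15.9 to 23.5 CPM (median 17.3), and its log2 fold changes were -0.41 (SE 0.11) and, on the other background, -0.44 (SE 0.11). Nwd1 had -0.23 and -0.22, the coatomer subunit Copg2 0.18 and 0.17, and the Mediator subunit Med14 0.14 and 0.14.

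The difference between both backgrounds was tested as the interaction of the alleles. edgeR called 0 of 20162 genes (0%), with 683 (3.39%, with 1.73% above and 1.66% below 0) at an unadjusted p under 0.05 and a lowest adjusted p of 0.999, and DESeq2 called 0. For Gm28439 the interaction was -0.0028 (95% interval -0.19 to 0.18) and for Gm10222 -0.11 (-0.29 to 0.082). Among genes with a symbol that is not predicted, Jund had the smallest p, with 0.28 against -0.14, an interaction of 0.42 (SE 0.098, adjusted p = 0.999 by edgeR). Next among such genes came Patl1 (-0.11 against 0.12), Pole2 (0.53 against -0.44), Kcnmb4os2 (0.64 against -0.25) and Pcdhga5 (-0.0020 against 0.38).

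**Figure D4:**
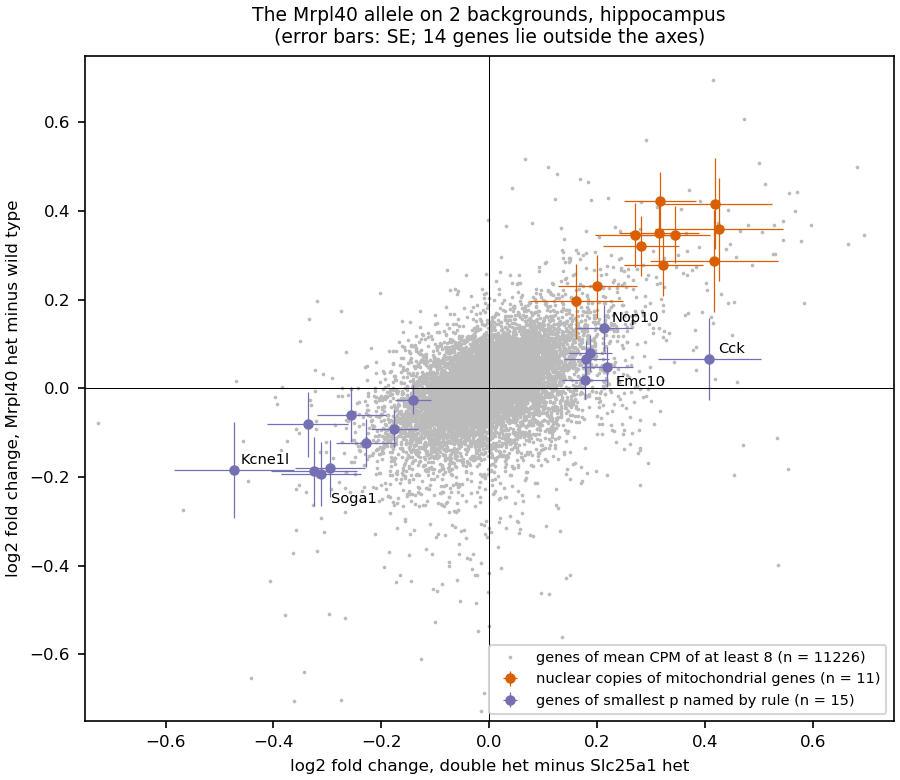
Log2 fold change of double het minus Slc25a1 het (x axis) and of Mrpl40 het minus wild type (y axis), from libraries that do not overlap, for 11226 genes of mean CPM of at least 8 (grey), the copies of mitochondrial genes and the 15 named genes, with SE bars. The copies, from 0.16 to 0.43 on the x axis, lie in the upper right, and 14 genes fall outside the axes.

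Each animal also gave a cortex library, so the hippocampal difference was tested against the cortical one with the animal as a block (58 libraries of 29 animals). edgeR called 7 of 21354 genes (0.0328%), all above 0 in hippocampus and below 0 in cortex, and 1359 (6.36%) had an unadjusted p under 0.05. Pcsk1n, which encodes proSAAS, an inhibitor of a prohormone convertase, held 107 to 246 CPM in Slc25a1 het and 152 to 231 CPM in double het hippocampus. In cortex it held 202 to 313 CPM in Slc25a1 het and 166 to 297 CPM in double het. Its log2 fold changes were 0.47 (SE 0.16) in hippocampus and -0.21 (SE 0.13) in cortex, a difference of 0.72 (SE 0.11, adjusted p = 0.00418 by edgeR).

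Jund had log2 fold changes of 0.28 (SE 0.070) in hippocampus and -0.14 (SE 0.071) in cortex, a difference of 0.44 (SE 0.085, adjusted p = 0.0373 by edgeR). The synaptic adhesion gene Lrrc4b had 0.22 (SE 0.060) in hippocampus and -0.075 (SE 0.046) in cortex, a difference of 0.30 (SE 0.057, adjusted p = 0.0301 by edgeR). The zinc finger gene Zfp771 differed by 0.82 (SE 0.14, adjusted p = 0.0107 by edgeR), and Scand1 by 1.82 (SE 0.35, adjusted p = 0.0463 by edgeR). Scand1 was scarce, at 1.06 to 6.61 CPM in Slc25a1 het and 2.12 to 7.93 CPM in double het hippocampus, and its highest Slc25a1 het value was that of replicate 1. The other genes that passed fall outside the naming rule and were named after their values were seen. For 1110065P20Rik, at 5.85 to 8.55 CPM in Slc25a1 het and 8.02 to 11.8 CPM in double het hippocampus and 5.83 to 9.26 CPM in Slc25a1 het and 4.61 to 8.06 CPM in double het cortex, the difference was 0.83 (SE 0.11, adjusted p = 0.000408 by edgeR). For ENSMUSG00000121607 it was 0.39 (SE 0.068, adjusted p = 0.0107 by edgeR).

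The count of 7 depended on the animals and the fit. It was 0 by edgeR without the animal block (DESeq2 was not run on this contrast; 1181 genes had an unadjusted p under 0.05, lowest adjusted p 0.255), 3 with only the 2 genotypes fitted, 3 with length and GC trends as offsets, and 1 (1110065P20Rik) without the animals that go against the label. Leaving out 1 animal gave 12 without Slc25a1 het 1, 4 without Slc25a1 het 4, 2 without Slc25a1 het 7, 13 without double het 1, 4 without double het 4, 4 without double het 5, and 5 or 8 for each of the others. 1110065P20Rik and Pcsk1n passed each time that 1 animal was left out. With only the 2 genotypes fitted, 1110065P20Rik, Zfp771 and ENSMUSG00000121914 passed, and Pcsk1n did not. With length and GC offsets 1110065P20Rik, Pcsk1n and ENSMUSG00000121607 passed. Jund, Lrrc4b and Scand1 passed in neither of these fits.

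**Figure D5:**
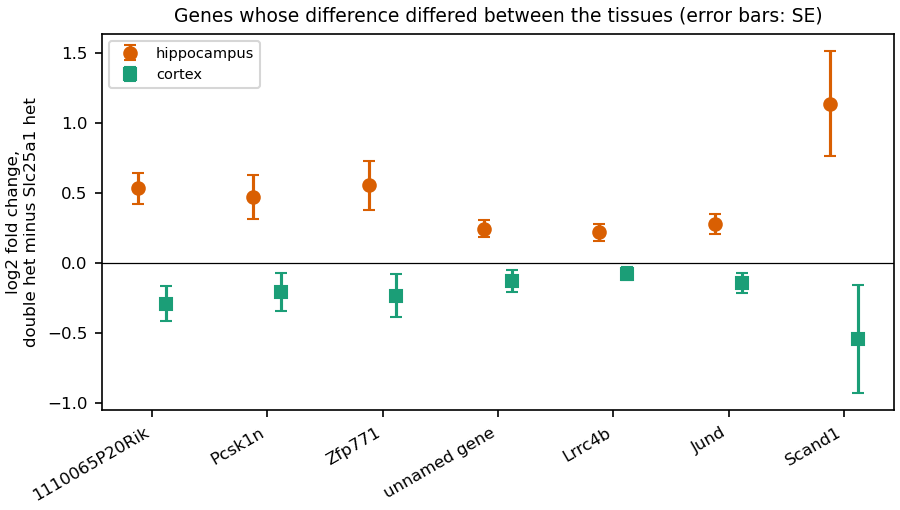
Log2 fold change of double het minus Slc25a1 het in hippocampus and in cortex, with SE bars, for the 7 genes whose difference differed between the tissues. All hippocampal values lie above 0 and all cortical values below, farthest apart for Scand1 (1.14 and -0.54).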

How the data were processed

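Poly(A) RNA of cortex and hippocampus was sequenced in 59 libraries of male mice of 4 genotypes. The authors deposited raw counts per gene. Per the submitters' processing notes the tools were FastQC, HISAT2, featureCounts and DESeq2, with build mm39 (GRCm39). Their versions and settings are not given in these sources. The deposited normalized counts are signal values equal to the raw counts over 1 factor per library (largest relative range 9.85e-10) and served 1 alternative. Of 57180 gene rows 44147 were above 0, and 7074 have a blank symbol.

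Groups came from the labels. All 29 hippocampus libraries were fitted with edgeR 4.0.16 in R 4.3.3 (filterByExpr by group, TMM, robust quasi-likelihood, Benjamini-Hochberg at 0.05). Contrasts were double het minus Slc25a1 het, Mrpl40 het minus wild type, and their difference. The tissue difference used 58 libraries with the animal as a block. The prior count of log2 CPM was 2. Alternatives were DESeq2 1.42.0 (Wald test, and size factors), other filters, a fold of 1.2, 2 surrogate variables (sva 3.50.0), a replicate block, limma 3.58.1 on log2 of normalized counts plus 1, the 14 libraries only, and single libraries left out. Added after the data were seen were fits without certain libraries, length and GC offsets (97.4% of genes annotated), and single animals left out of the tissue fit. The edgeR script was tested on simulated data.

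Named were the targeted genes, the 15 smallest p without a predicted symbol, the smallest p of each list and the 5 smallest p of each other contrast. Members, the 41 lists and tests were chosen with earlier results of these data known. Copies were found with blastn (95% identity over 200 bases) in GENCODE vM21 transcripts (GRCm38).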

Additional observations from a re-analysis of the deposited data

Results flagged for a closer look

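Libraries far from the 6 others of their group were looked for in 84 list means and 80 gene levels, with Dixon's 95% critical value, which chance alone passes in about 1 of 20 groups. Of these, 2 list means and 7 gene levels stood apart. The genes checked were the targeted genes, the copies, named genes without overlap and those of small p on both Slc25a1 backgrounds. Genes named only by other rules, such as Emc10, Cck, Cbln3, Pcsk1n and Scand1, were not checked. Their absence below does not show that no library stood apart for them. The cerebellum list had a mean log2 CPM of 6.185 in the library labelled Slc25a1 het 3, with the nearest library at 2.668. The neuropeptides, granins and processing enzymes had a mean log2 CPM of 5.225 in Slc25a1 het 1, with the nearest at 5.021. Among single genes, Rnf126 lay at 38.8 CPM (nearest 44.7) and Fam198a at 10.8 CPM (nearest 7.37) in Slc25a1 het 7. Hapln3 lay at 2.04 CPM (nearest 1.67) and Rpe at 21.6 CPM (nearest 24.2) in Slc25a1 het 2. Zmiz1os1 lay at 2.82 CPM (nearest 1.92) in Slc25a1 het 6. In double het, Hipk2 lay at 23.5 CPM in replicate 2 (nearest 18.4) and Colca2 at 0.546 CPM in replicate 7 (nearest 0.785).

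The difference between double het and Slc25a1 het was itself different in hippocampus and cortex for 7 genes, by edgeR's test with the animal as a block. On the log2 scale, hippocampus minus cortex, it was 0.8257 for 1110065P20Rik, 0.724 for Pcsk1n, 0.8203 for Zfp771, 0.3873 for ENSMUSG00000121607, 0.3003 for Lrrc4b, 0.4386 for Jund and 1.824 for Scand1.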

How the results depend on the processing

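Between double het and Slc25a1 het, 0 genes were called by edgeR with DESeq2's size factors, with no filter or a stricter one, against a fold of 1.2, with the 14 libraries only (with or without the block), with limma, with length and GC offsets and without the libraries that go against the label, or without Slc25a1 het 3 and double het 6. The count was 1 with 2 surrogate variables (Gm28439), 14 with DESeq2's Wald test, and 0 to 10 with 1 library left out. The replicate block gave 1 (1110065P20Rik), 4 for the interaction of the alleles and 0 for Mrpl40 het minus wild type. Same-numbered libraries are different animals: 2 of 7 same-numbered pairs correlated over 0.1 in their deviations (number 1 at 0.289), and 0 libraries correlated best with their own number. The median correlation was 0.0285 for same numbers and 0.0302 for different ones. Whether a number stands for a batch was not tested. The interaction was 0 in every other fit run. Mrpl40 het minus wild type, with 1 gene as reported, gave 2 with DESeq2's size factors, 2 with no filter, 2 with surrogate variables, 3 with limma, 7 with length and GC offsets, 9 with DESeq2 and 0 without the libraries that go against the label. The tissue difference, with 7, gave 0 without the animal block, 3 with 2 genotypes, 3 with length and GC offsets, 1 without the animals that go against the label, and 2 to 13 with 1 animal left out. The cause of these moves was not tested.

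Of the named genes' log2 fold changes under alternatives, 2701 had the direction and side of the threshold as reported, 21 passed where they had not, and 25 had the other sign, none of them past the threshold. Pcdhga5 (-0.002018 as reported) was 0.00258 with DESeq2's size factors, 0.000957 with the 14 libraries, 0.003544 with DESeq2, 0.02725 without the libraries that go against the label, 0.002082 without Slc25a1 het 3 and double het 6, 0.0106 with length and GC offsets, and -0.06743 to 0.03318 with 1 library left out. Slc25a1 (0.06684) was -0.009258 with surrogate variables and -0.1226 to 0.2271 with 1 left out. Cbln3 (-4.433) was 0.2273 with DESeq2, 0.4499 without the libraries that go against the label, 0.251 without Slc25a1 het 3 and double het 6, and -4.959 to 0.1718 with 1 left out, above 0 without Slc25a1 het 3. With 1 left out Lypd1 ran from -0.004193 to 0.07837 and Alox5ap from -0.00168 to 0.129. Depth limits the scarce genes: the median SE was 0.092 over all genes and 0.058 at a mean log2 CPM of at least 3.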

Other observations

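Gene groups not described above lay on both sides of 0, and no member passed edgeR's test. The ATF4 and mitochondrial stress response genes, which mark impaired mitochondrial translation in other settings, lay above 0 for 12 of 23 (median 0.0043), with Psph, of serine synthesis, at 18.1 to 21.0 CPM in Slc25a1 het and 15.2 to 19.1 CPM in double het (log2 fold change -0.14, SE 0.057). The glutamate receptors and postsynaptic scaffold list had 19 of 31 (median 0.016), and GABA receptors and transport 11 of 17 (median 0.035). The circadian clock genes had 4 of 16 (median -0.050), glucocorticoid-responsive genes 9 of 12 (median 0.045), and interferon response and antigen presentation 12 of 22 (median 0.0087).

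Among cell types and regions, markers of interneurons lay above 0 for 11 of 17 (median 0.058), CA2 pyramidal cells for 5 of 8 (median 0.020), endothelial cells and pericytes for 5 of 18 (median -0.081), oligodendrocyte precursors for 2 of 9 (median -0.051), meninges and fibroblasts for 6 of 12 (median -0.0020) and blood cells for 0 of 5 (median -0.068). Markers of regions around the hippocampus lay above 0 for 4 of 10 (median -0.038) in the subiculum, 5 of 12 (median -0.050) in the thalamus and habenula, 8 of 14 (median 0.057) in the neocortical layers and 5 of 12 (median -0.034) in the striatum.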
